A study of Mus musculus with 50 samples.

Results

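Gm15622 and Bhmt overlap on opposite strands of mouse chromosome 13, and they are 2 of the 37310 genes in the RNA count tables. They were chosen by name, with their values in these libraries known, so their levels are given as a description with no test. The libraries come from J1 embryonic stem (ES) cells of the 129S4/SvJae strain, untreated and grown on gelatin in serum with the cytokine LIF: the line KO2 of genotype NSD1-/-, the line KO1 of the same genotype, and wild type cells, with 2 libraries each. The histone methyltransferase NSD1 makes H3K36me2, and the title of the series links it to HDAC1 and to H3K27 acetylation at enhancers. How the lines were derived and whether each is a single clone are not in the labels. Nor do the labels state that libraries of a group are separate cultures. The p-values therefore describe the spread between libraries alone, and that spread may be technical.

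Bhmt encodes betaine-homocysteine methyltransferase, which moves a methyl group from betaine to homocysteine and so makes methionine and dimethylglycine. It is best known as an abundant enzyme of the liver, and in the mouse its activity is also known from the blastocyst, the stage from which ES cells are derived. Its neighbour Bhmt2 encodes a related enzyme that uses S-methylmethionine as the methyl donor, and the next gene, Dmgdh, encodes the mitochondrial dehydrogenase that takes up the dimethylglycine. Gm15622 is annotated as a non-coding antisense transcript inside Bhmt.

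Bhmt (ENSMUSG00000074768.5) lies on the minus strand of chromosome 13, from 94386846 to 94407916 in mm9, and its coding transcript has 8 exons and 2274 bases. Gm15622 (ENSMUSG00000085834.1) lies on the plus strand from 94395337 to 94398588, with 2 exons of 1464 bases in all. Only 187 bases are in exons of both genes: 80 of exon 3 of Bhmt (94397241 to 94397320) and 107 of exon 4 (94395337 to 94395443), all of them coding. They are 8.22% of the coding transcript of Bhmt and 12.8% of the exon bases of Gm15622. The other 1277 exon bases of Gm15622 lie opposite introns of Bhmt, 1268 of them in one stretch beside exon 3.

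**Figure D1:**
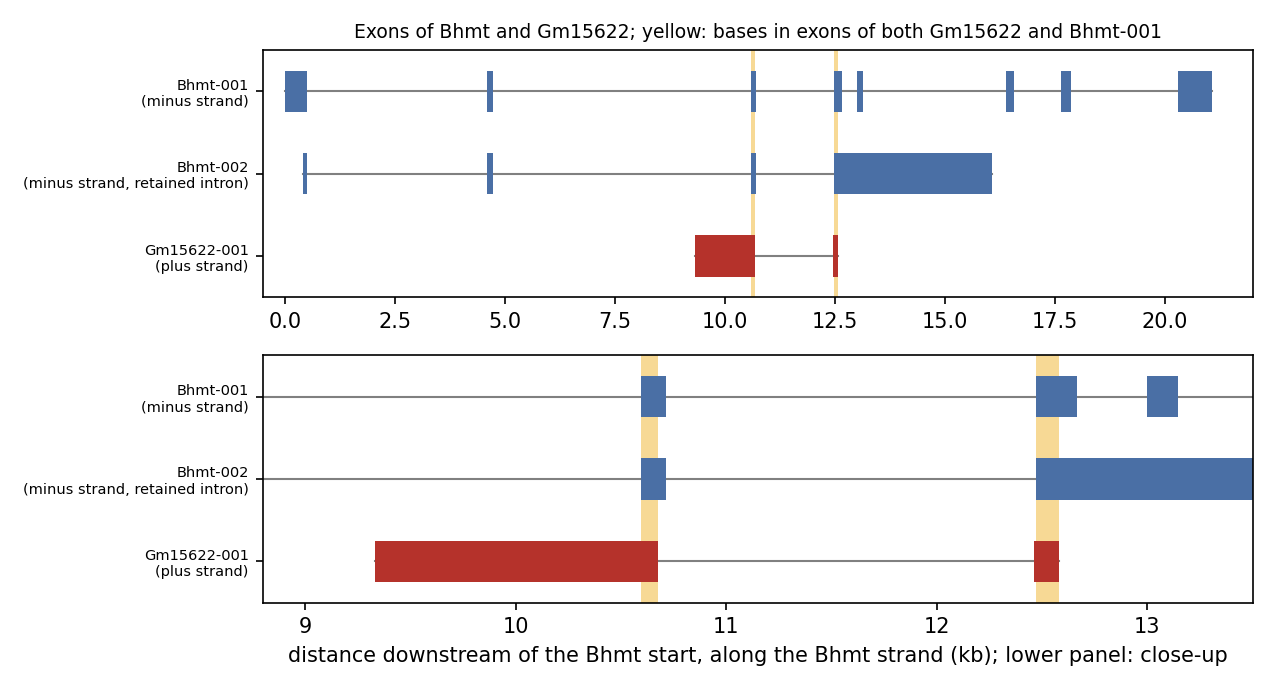
Exons (boxes) of the transcripts Bhmt-001, Bhmt-002 and Gm15622-001 by distance from the Bhmt start in kb along the Bhmt strand, whole gene above and a close-up below, with the shared bases in yellow. The shared bases are 80 in exon 3 and 107 in exon 4 of Bhmt, and most of Gm15622 lies opposite an intron.

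Counts at a gene were taken to come from the other strand. The header of each table gives a strand setting of 1, which keeps a fragment only where read 1 has the orientation of the gene, and 85.7% to 87.8% of the counts outside the ribosomal RNA locus AY036118 fell on the 4887 genes with another gene's exon opposite. An example is Tdh, which encodes threonine dehydrogenase, known for its high level in mouse ES cells: Tdh had 9 to 35 counts per library and Gm17232, opposite it, had 2045 to 5888. Read this way, counts at Gm15622 are fragments from the Bhmt strand that touch one of its exons, spliced or not, and fragments from the other exons of Bhmt were counted nowhere. The tables do not record where on Gm15622 a fragment lay, and they alone do not tell Bhmt RNA from a transcript of Gm15622 itself if the strand setting matched the libraries at this locus. How much of a gene's own RNA was counted on its own strand was not tested.

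The stretch shown first is the part of the long exon of Gm15622 next to exon 3 of Bhmt, chr13:94397321-94397620 on the plus strand of mm9. It is shown because most countable bases lie in this exon outside Bhmt exons. It opens with a tandem repeat, and the capitals mark the longest run of letters that occurs at least 5 times in these 300 bases, CATCCACCAACCTG, of 14 bases. On this strand it occurs 5 times, at steps of 32 to 36 bases, and nowhere else in the 1268 bases.

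Gm15622 beside Bhmt exon 3: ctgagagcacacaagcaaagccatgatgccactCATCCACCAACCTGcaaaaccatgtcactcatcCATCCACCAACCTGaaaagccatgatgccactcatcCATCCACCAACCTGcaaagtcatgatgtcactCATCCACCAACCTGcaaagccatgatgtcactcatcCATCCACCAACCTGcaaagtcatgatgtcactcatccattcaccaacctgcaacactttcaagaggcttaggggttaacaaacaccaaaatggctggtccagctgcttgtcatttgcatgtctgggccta

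In a search of the whole mm9 genome for alignments of at least 95% identity and 100 bases, the 1268 bases matched their own locus alone. Exons 3 and 4 of Bhmt did not: exon 3 was 100% identical over its 119 bases to Bhmt-ps1, an intronless copy on chromosome 4, and exon 4 was 99.0% identical to it over 192 bases. A second intronless copy, on chromosome 18, was 100% and 99.5% identical to the 2 exons. The copies matched bases 398 to 2269 of the spliced coding transcript, at 98.7% on chromosome 4 and 99.4% on chromosome 18. The counting command holds no option for fragments that map to several places. A fragment within these exons, or spliced across their borders, that mapped equally well to a copy would therefore not have been counted at Gm15622. Both copies had 0 counts in all 6 libraries on their own annotated strand. Read as above, these are no measure of their RNA, and a fragment that mapped equally well to Bhmt would not be counted. How far the copies lowered the count at Gm15622 was not tested.

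Gm15622 stood higher in KO2 than in every other library, and higher in KO1 than in wild type. In KO2 it had 247 and 257 counts, in KO1 67 and 59, and in wild type 29 and 20. The 3 groups did not overlap, but how many other tested genes separate them in the same way was not counted. Scaled to the effective library size, the levels were 220 and 212 CPM in KO2, 54.2 and 49.5 CPM in KO1, and 25.4 and 17.0 CPM in wild type. The means were 216 ± 5.83 CPM in KO2, 51.8 ± 3.33 CPM in KO1 and 21.2 ± 5.92 CPM in wild type (SD, n = 2 each). The exact 95% Poisson interval of the lower wild type count was 12.2 to 30.9. That of the higher wild type count was 19.4 to 41.6, so the intervals overlapped. These intervals cover counting error only.

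Bhmt itself, counted on its own annotated strand, had 0 and 1 counts in KO2, 0 and 0 in KO1, and 0 and 0 in wild type. A count of 0 allows up to 3 counts, or 2.43 to 2.67 CPM in these libraries. No fold change is given for Bhmt, since all groups were at or under that limit. In a bulk sample, more cells that express a gene and more of its RNA per cell cannot be told apart.

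**Figure D2:**
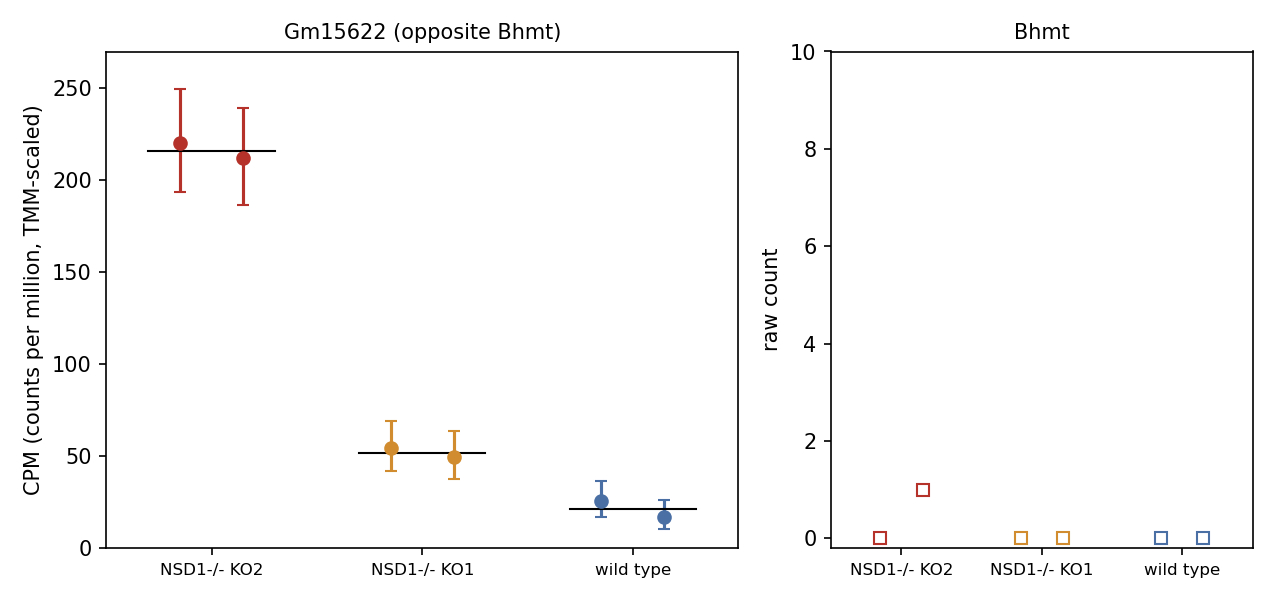
Left, CPM of Gm15622 in each library, with exact 95% Poisson intervals as bars and group means as lines. Right, raw counts of Bhmt. The KO2 libraries stand at 220 and 212 CPM, the KO1 libraries at 54.2 and 49.5, and the wild type libraries at 25.4 and 17.0, while Bhmt has a single count in one KO2 library.

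The log2 fold change of Gm15622 in the edgeR fit was 3.35 ± 0.18 (SE) in KO2 against wild type, a fold of 10.2. In KO1 against wild type it was 1.29 ± 0.23, a fold of 2.45, and in KO2 against KO1 it was 2.06 ± 0.15, a fold of 4.16. In KO2 against wild type this was the highest of the log2 fold changes of all 5034 tested genes, whose median was -0.01. In KO1 against wild type it ranked 91, and 32 among the 2474 tested genes with a gene opposite. Between the lines it ranked 14. Both comparisons with wild type share the wild type libraries, whose lower count carries part of both folds. Without wild type replicate 1 the values were 3.67 and 1.60, and without replicate 2 they were 3.10 and 1.03, in KO2 and in KO1. Among all genes of a library, Gm15622 ranked 570 and 587 by CPM in KO2, 1394 and 1453 in KO1, and 2173 and 2810 in wild type.

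**Figure D3:**
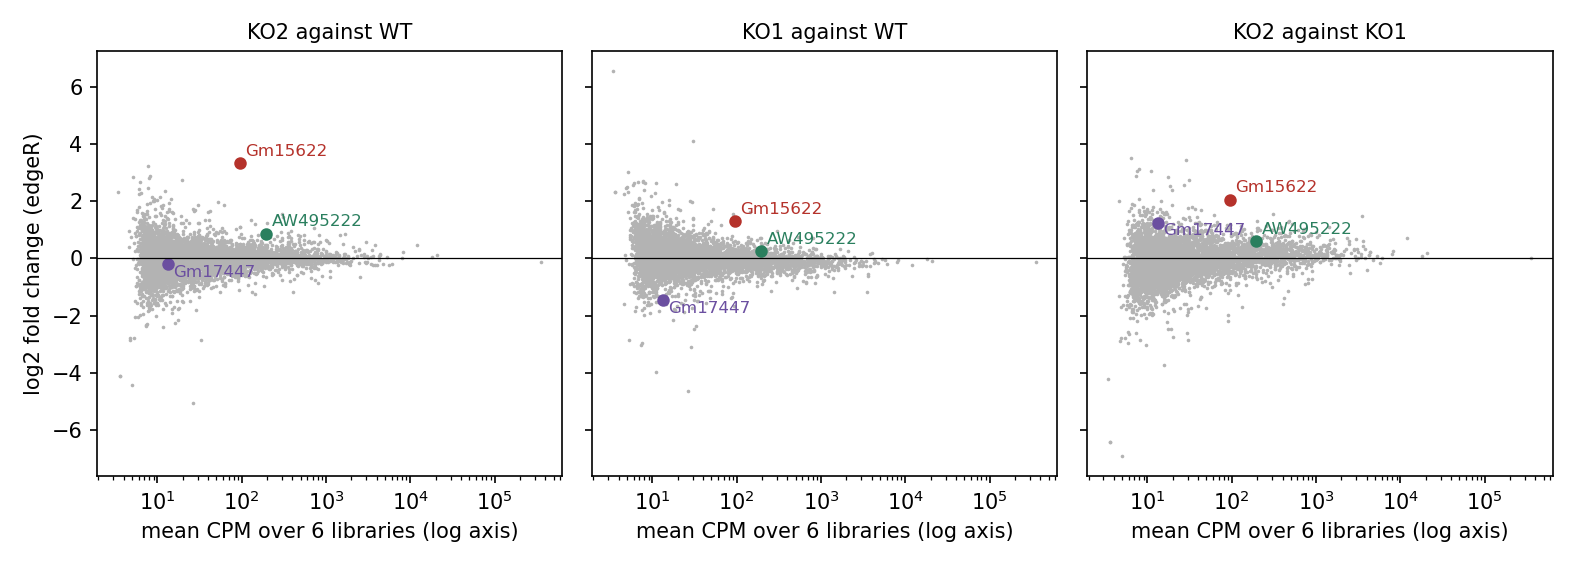
Log2 fold change by mean CPM (log axis) of the 5034 tested genes (grey) in KO2 against WT (wild type), KO1 against WT and KO2 against KO1, with Gm15622, AW495222 and Gm17447 marked. Gm15622 has the highest value of all in KO2 against wild type, at 3.35.

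The 5 tested genes with the most similar pattern, by Pearson correlation of log2(CPM + 1) over the 6 libraries among 5024 others with a mean of at least 5 CPM, were B230206H07Rik (opposite Eps8l2, r = 0.998), Gm16706 (opposite the Polycomb gene Suz12, 0.995), 4930405P13Rik (opposite Scpep1, 0.994), Limd2 (0.984) and Gm12592 (opposite Patz1, 0.983). This is a description over libraries that share their groups. All 5 followed the order KO2, KO1, wild type, but over a narrower range: the widest was Gm16706, at 2231 ± 106 CPM in KO2, 1554 ± 19.5 in KO1 and 1238 ± 57.5 in wild type (SD, n = 2 each). Its log2 fold change in KO2 against wild type was 0.85 ± 0.05. All but B230206H07Rik lie on chromosome 11, whose 560 tested genes had a median log2 fold change of 0.398 in KO2 against wild type. The median over the 163 tested genes of chromosome 13, Gm15622 included, was 0.03 in KO2 and 0.01 in KO1.

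The 12 other genes whose whole span lies within 500 kb of Bhmt or Gm15622 were the background of the locus. Of these, 2 had enough counts to be tested. AW495222, the nearer, lies on the minus strand from 94476137 to 94489130, 68.2 kb away, inside Dmgdh and opposite it. Its exons share 215 bases with a single exon of Dmgdh, the coding exon 12 of 16, at chr13:94485413-94485630 on the plus strand. That exon is shown with those bases in capitals, since it holds every base that exons of both genes share. The other 704 of the 919 exon bases of AW495222 lie outside Dmgdh exons. Exon 12 of Dmgdh matched no other place in mm9 in the search described above, which did not cover the rest of AW495222.

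Dmgdh exon 12: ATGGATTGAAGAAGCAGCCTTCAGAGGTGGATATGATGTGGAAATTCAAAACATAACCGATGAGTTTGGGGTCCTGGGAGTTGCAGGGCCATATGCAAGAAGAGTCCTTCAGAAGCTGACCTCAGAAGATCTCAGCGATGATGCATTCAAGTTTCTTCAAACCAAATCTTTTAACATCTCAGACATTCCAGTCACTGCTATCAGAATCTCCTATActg

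AW495222 rose in KO2. It had 290 and 334 counts in KO2, 248 and 177 in KO1, and 170 and 170 in wild type, or 267 ± 12, 174 ± 36.9 and 147 ± 2.98 CPM (SD, n = 2 each). The KO2 libraries stood above all others. Of the KO1 libraries, at 201 and 148 CPM, the first stood above both wild type libraries and the second between them, at 149 and 145 CPM. In edgeR's quasi-likelihood test (p adjusted by Benjamini-Hochberg), its log2 fold change was 0.86 ± 0.12 in KO2 against wild type (adjusted p 5.18e-06) and 0.61 ± 0.11 in KO2 against KO1 (adjusted p 2.08e-04). The value for KO1 against wild type, 0.25 ± 0.13, did not pass (adjusted p 0.242). That value was 0.030 without KO1 replicate 1 and 0.44 without KO1 replicate 2, so its size rests on 1 library. The ratio of Gm15622 to AW495222 counts was 0.852 and 0.769 in KO2, 0.270 and 0.333 in KO1, and 0.171 and 0.118 in wild type.

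Gm17447 (94710945 to 94712970, minus strand), opposite the lysosomal arylsulfatase gene Arsb, lies 303 kb away and took another course. It had 17 and 20 counts in KO2, 6 and 10 in KO1, and 22 and 20 in wild type. It fell in KO1 against wild type (-1.44 ± 0.40, adjusted p 0.0169) and did not pass in KO2 against wild type (-0.19 ± 0.33, adjusted p 0.798). Between KO2 and KO1 the difference was 1.25 ± 0.41 (adjusted p 0.0299, edgeR). Without KO1 replicate 1 or wild type replicate 1 the adjusted p in KO1 was 0.216 or 0.0981. Without KO1 replicate 1, KO2 replicate 1 or KO2 replicate 2 that of the difference between the lines was 0.246, 0.0661 or 0.133, and with no filter it was 0.0608.

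In all, 1 of the 2 tested neighbours was called higher and 0 lower in KO2 against wild type, where 5.01% of all tested genes were called higher and 3.97% lower. In KO1 against wild type 0 were called higher and 1 lower, where 3.46% were called higher and 6.34% lower, and at an unadjusted p under 0.05 the counts were also 0 and 1. Between KO2 and KO1 both were called higher in KO2, where 11.4% of all tested genes were called higher and 7.93% lower. Genes with a gene opposite were called more often than others, at 13.9% against 4.26% in KO2, and both neighbours are of this kind.

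The other 10 neighbours had too few counts to be tested, and the 4 with the most are given here. Read as above, counts at these 4 genes are not taken as a measure of their own RNA. Bhmt2 (94425675 to 94444257, minus strand), which has no annotated exon opposite, had 10 and 8 counts in KO2, 3 and 2 in KO1, and 3 and 2 in wild type. The ratio of its summed, scaled counts was 3.58 in KO2 to wild type (exact 95% interval 1.28 to 12.3) and 0.955 in KO1 to wild type (0.220 to 4.15), intervals that cover counting error only. Dmgdh, which starts 130 bases from Bhmt2 on the other strand, had 3 and 4 counts in KO2, 5 and 3 in KO1, and 3 and 2 in wild type. Jmy, which encodes a cofactor of p53 and actin nucleator, had 6 and 7 counts in KO2, 4 and 5 in KO1, and 4 and 3 in wild type. The pseudogene Gm6109 had 1 and 0 counts in KO2, 6 and 4 in KO1, and 4 and 4 in wild type. The ratios of Jmy and Dmgdh had intervals that include 1 in both lines, and that of Gm6109 was 0.124 in KO2 to wild type (0.00280 to 0.926). Homer1, Papd4, Gm15620 and Arsb had 14 counts or fewer in all 6 libraries together, and the other 2 neighbours had none.

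**Figure D4:**
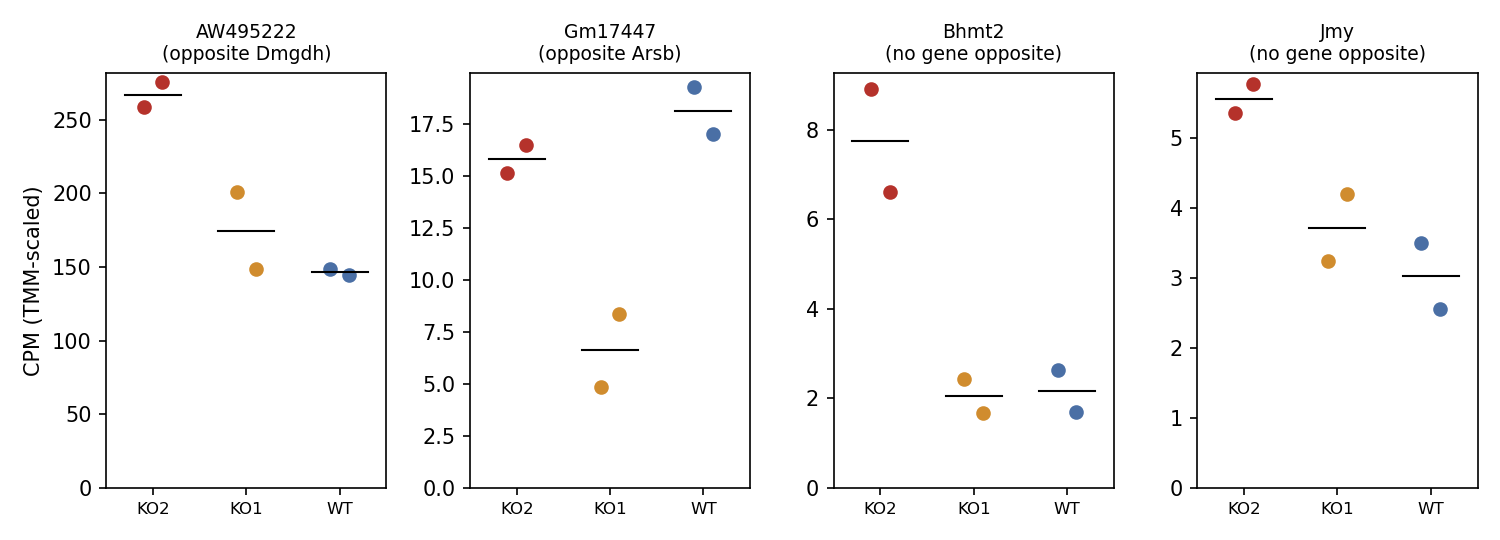
CPM by library (points) with group means (lines) for AW495222, Gm17447, Bhmt2 and Jmy in KO2, KO1 and wild type (WT), each panel with its own axis from 0. AW495222 and Bhmt2 stand highest in KO2, while Gm17447 stands lowest in KO1. Counts at Bhmt2 and Jmy, which have no gene opposite, are not taken as a measure of their own RNA.

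Betaine use feeds the methionine cycle beside the folate pathway, which supplies methyl groups from serine, glycine and, in mouse ES cells, threonine. Entries for these pathways were counted by their own symbol or by the symbol of the gene opposite, leaving out Gm15622 and Bhmt. They came to 79 entries, of which 26 were tested. In KO2 against wild type 4 of the 26 rose and 0 fell by edgeR's adjusted p. Over all tested genes 5.01% rose and 3.97% fell. Called in either direction were 15.4% of the entries, 8.98% of all tested genes and 13.9% of those with a gene opposite. At an unadjusted p under 0.05, 6 entries rose and 3 fell. The median log2 fold change was 0.02 over the 26 entries and -0.01 over all tested genes. In KO1 against wild type 0 rose and 2 fell, where 3.46% of all tested genes rose and 6.34% fell. Called in either direction were 7.69% of the entries, 9.79% of all tested genes and 15.5% of those with a gene opposite. At an unadjusted p under 0.05, 1 entry rose and 6 fell. The medians there were -0.17 and 0.005.

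The entries that rose in KO2 were AW495222 (opposite Dmgdh), Smcr8, Slc46a1 and Gm17232. Smcr8, opposite the cytosolic serine hydroxymethyltransferase gene Shmt1, stood at 182 ± 2.08 CPM in KO2, 94.3 ± 1.84 in KO1 and 116 ± 14.5 in wild type (SD, n = 2 each). Its log2 fold change was 0.66 ± 0.12 in KO2 (adjusted p 5.24e-04) and -0.29 ± 0.14 in KO1 (adjusted p 0.210). Slc46a1, which encodes the proton-coupled folate transporter and has no gene opposite, rose by 1.38 ± 0.39 (adjusted p 0.0214). Read as above, counts at Slc46a1 are not taken as a measure of its own RNA. Without KO2 replicate 1, KO2 replicate 2 or wild type replicate 2 its adjusted p was 0.0554, 0.0971 or 0.180. Smcr8 and Slc46a1 lie on chromosome 11, whose median in KO2 is given above.

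Gm17232, opposite Tdh, is the most abundant entry and moved in opposite directions in the lines. It stood at 4843 ± 16.3 CPM in KO2, 1749 ± 48.8 in KO1 and 3956 ± 116 in wild type, with a log2 fold change of 0.29 ± 0.05 in KO2 (adjusted p 3.53e-05). In KO1 the log2 fold change was -1.18 ± 0.05 (2.99e-17). The other entry that fell in KO1 was 1700060J05Rik, opposite the choline transporter gene Slc44a1, by -0.38 ± 0.10 (adjusted p 0.0126). Its adjusted p was 0.0721, 0.125 or 0.312 without KO1 replicate 1, KO1 replicate 2 or wild type replicate 1, and 0.138 with DESeq2.

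No entry of the methionine cycle was called in either line. Mat2a, which encodes the S-adenosylmethionine synthetase subunit of most tissues, had 17 and 19 counts in KO2, 12 and 12 in KO1, and 20 and 20 in wild type. Gamt, for the methyltransferase that makes creatine, had 6 and 7 counts in KO2, 13 and 11 in KO1, and 20 and 12 in wild type. These were the 2 tested of its 21 entries, and no entry lay opposite a gene of this list, apart from Gm15622. Read as above, counts on a gene's own strand are not taken as a measure of its RNA, so RNA levels of these genes were not tested.

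Between KO2 and KO1, 26.9% of the 26 entries were called, against 19.3% of all tested genes and 27.5% of those with a gene opposite. Of all tested genes 11.4% were higher in KO2 and 7.93% lower. Of the entries, 6 were higher in KO2 and 1 was lower. Those higher were Gm17232 (1.47 ± 0.05), Tdh on its own strand (1.61 ± 0.39), Smcr8 (0.95 ± 0.13), AW495222, Gm15756 (opposite the folate enzyme gene Aldh1l1, 0.57 ± 0.18) and 1700060J05Rik (0.44 ± 0.10). Counts at the folate carrier gene Slc19a1, which has no gene opposite, were lower, at 3 and 2 in KO2 and 12 and 11 in KO1 (-2.09 ± 0.64). Read as above, they are not taken as a measure of its own RNA. Across the called entries the edgeR adjusted p ran from 6.15e-20 for Gm17232 to 0.0275 for Gm15756. Without any single one of the 4 libraries compared, the adjusted p was 0.0736 to 0.137 for Gm15756 (0.225 with DESeq2) and 0.0508 to 0.143 for Slc19a1, and without KO2 replicate 1 it was 0.104 for Tdh. Gm15756 lies on chromosome 6, whose 259 tested genes had a median of 0.406 in this comparison.

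**Figure D5:**
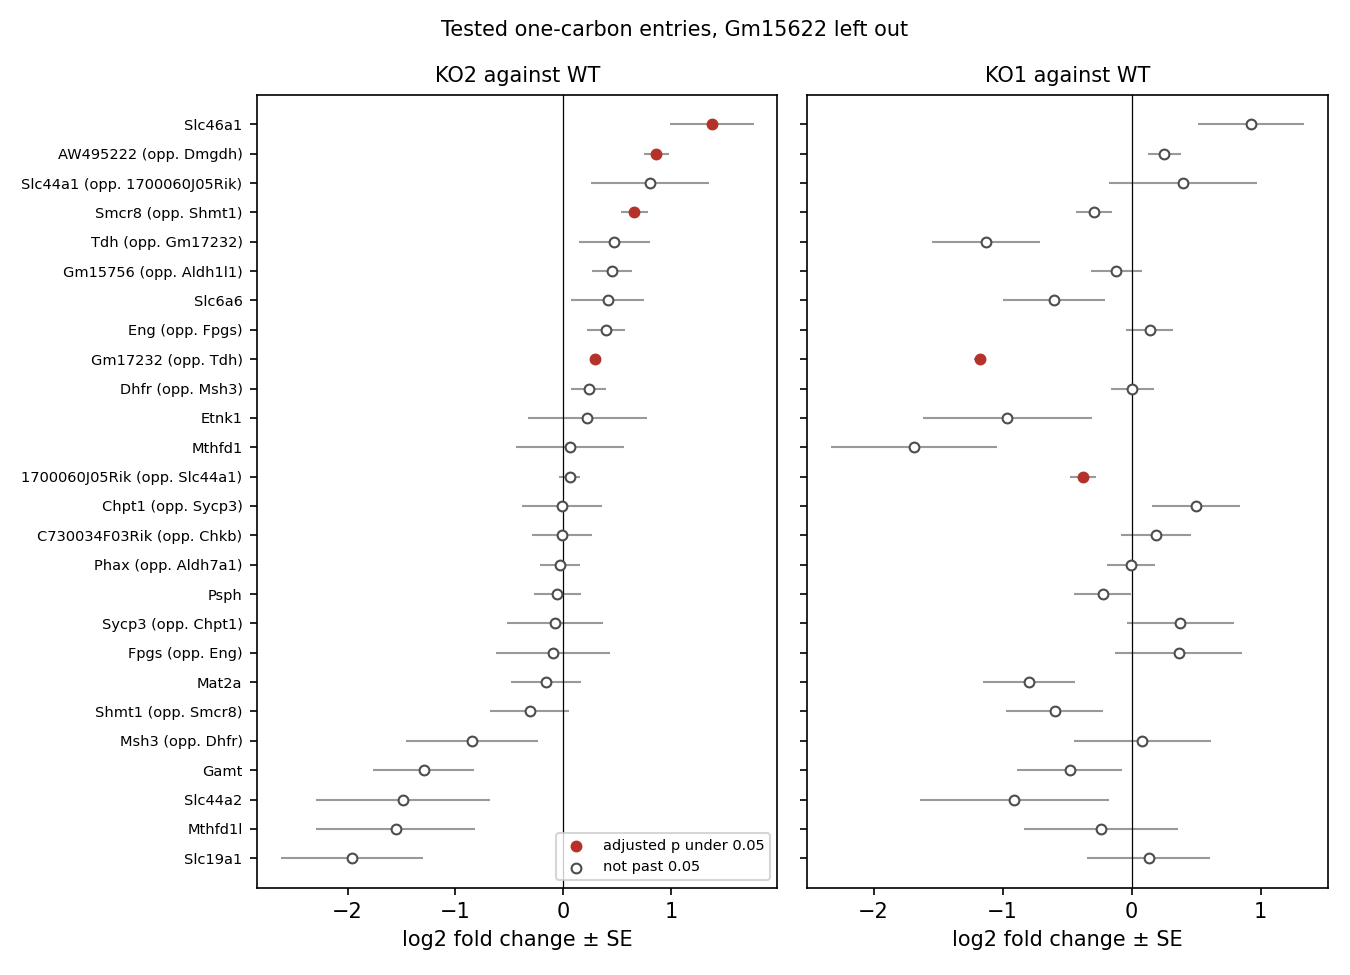
Log2 fold change ± SE of the 26 tested one-carbon entries in KO2 against WT (wild type) and KO1 against WT, ordered by the value in KO2, with "opp." naming the gene opposite and filled points for an edgeR adjusted p under 0.05. AW495222, Smcr8, Slc46a1 and Gm17232 are filled on the right of 0 in KO2, and Gm17232 and 1700060J05Rik on the left of 0 in KO1.

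Total counts per library were 1150089 to 1285487, and AY036118 took 32.3% to 37.2% of them. Nsd1 had 27 and 21 counts in KO2, 55 and 38 in KO1, and 21 and 25 in wild type, and with no gene opposite these counts do not check its loss. It was called higher in KO1 against wild type (0.94 ± 0.27, adjusted p 0.0230), but with an adjusted p of 0.289, 0.147 or 0.0509 without KO1 replicate 1, wild type replicate 1 or wild type replicate 2, and 0.348 with DESeq2. ES cell markers could be read on the opposite strand only at Gm17232 (Tdh) and Gm13061, opposite Lin28a. Gm13061 had 417 and 372 counts in KO2, 401 and 362 in KO1, and 515 and 503 in wild type. Its log2 fold change was -0.38 ± 0.09 in KO2 (edgeR adjusted p 0.00518) and -0.48 ± 0.09 in KO1 (3.23e-04). Gm17232, as given above, rose in KO2 and fell in KO1. The 25 hepatocyte and endoderm entries had 0 to 5 counts in all per library on their own strand, 17 of them at 0. The only entry opposite 1 of these genes was also at 0. Read as above, own-strand counts are not taken as a measure of the RNA of these markers. Whether such cells were present was not tested. Own-strand sums per library were 454 to 538 for ES cell, 55 to 73 for kidney tubule and 77 to 108 for fibroblast markers. Of the ES cell markers, 11 were tested on their own strand and 0 were called against wild type in either line. Of the kidney tubule entries, 3 lay opposite a marker, with 1 or 2 counts per library in all. The 6 entries opposite fibroblast markers had 1463 and 1628 summed counts in KO2, 1730 and 1732 in KO1, and 1745 and 1875 in wild type. Most of these counts were at Apol7d, opposite Fn1, which was not called in either line. Apol7d had 1311 and 1468 counts in KO2, 1483 and 1528 in KO1, and 1338 and 1402 in wild type. Of these 6, 5 were called lower in KO2, where 3.97% of all tested genes were, and 3 in KO1, where 6.34% were. Among them was Gm17329, opposite Col1a1, with 4 and 1 counts in KO2, 4 and 3 in KO1, and 78 and 94 in wild type. Their part in the level of Gm15622 was not tested.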

How the data were processed

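RNA was measured in 6 of the 50 samples of the series, and its 44 chromatin samples were not analysed here. The deposited values are raw counts per gene: the authors used featureCounts 2.0.1, per the file headers, on paired reads over exons, with strand setting 1 and GENCODE mouse version 1 (mm9). The submitters' processing notes also name Trim Galore 0.6.4 and STAR 2.5.4b, with no role given. Spans and strands of all 37310 genes equalled those of that annotation.

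The gene opposite was the one with the largest exon overlap on the other strand, of at least 50 bases (bedtools 2.31.1). Counts were fitted in edgeR 4.0.16 (R 4.3.3) over all 6 libraries, filtered by filterByExpr (minimum count 10) and scaled by TMM, in a robust quasi-likelihood fit with a mean per group, which left 3 residual degrees of freedom. The 5034 tested genes had a median of 23 to 27 counts per library. Calls used a Benjamini-Hochberg adjusted p under 0.05 over all tested genes. CPM is counts scaled to the effective library size. Copies were searched with BLAST 2.17.0. The steps were tested on simulated counts.

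The members and the gene lists were chosen with earlier results of these data known. Named were the tested neighbours, the 4 others with the most counts, the called and most abundant list entries, and the 5 genes most alike. Alternatives were DESeq2 1.42.0, its size factors, no filter, AY036118 left out, a replicate block, and each library left out.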

Additional observations from a re-analysis of the deposited data

Results flagged for a closer look

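The lines KO2 and KO1 differed from each other, by edgeR's adjusted p, in 9 named genes apart from Gm15622, whose own difference was not tested. In this comparison 19.3% of all tested genes were called, and 27.5% of those with a gene opposite. One-carbon entries were named partly because they were called in one of the comparisons, so the count of 9 is no result about the named genes. Higher in KO2 were AW495222 (log2 fold change 0.61), Gm17447 (1.25), Gm17232 (1.47), Tdh (1.61), Smcr8 (0.95), Gm15756 (0.57) and 1700060J05Rik (0.44). Lower in KO2 were Slc19a1 (-2.09) and Nsd1 (-0.89). The genes of pattern most like Gm15622 were chosen for such a difference, and theirs was 0.42 for B230206H07Rik, 0.52 for Gm16706, 0.44 for 4930405P13Rik, 0.45 for Limd2 and 0.40 for Gm12592. Groups of 2 libraries are too small to single out a library.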

How the results depend on the processing

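Gm15622 stayed positive in every comparison under all 11 alternatives, with log2 fold changes over the libraries left out in turn of 3.10 to 3.67 in KO2, 1.03 to 1.60 in KO1 and 2.0 to 2.11 between the lines. The ends of both ranges against wild type come from the wild type libraries. DESeq2 called 137 genes in KO2, 182 in KO1 and 370 between the lines, against 452, 493 and 971 in the edgeR fit. It called 0 neighbours in KO1, where it gave Gm17447 an unadjusted p of 0.0335 and no adjusted p, and 1 between the lines, as did the fit with no filter. Among one-carbon entries it called 1 in KO1 and 4 between the lines. With a library left out, genes called ran from 280 to 591 in KO1, 328 to 435 in KO2 and 561 to 1065 between the lines. Neighbours called ran from 0 to 1 in KO1 and 1 to 2 between the lines, and one-carbon entries from 1 to 3 in KO1. AW495222 stayed past the threshold in KO2 under all 11, at 0.83 to 0.93 with a library left out. Uncalled values that changed sign with a library left out were Slc19a1 in KO1 (-0.15 to 0.47), 1700060J05Rik in KO2 (-0.068 to 0.23) and Nsd1 in KO2 (-0.17 to 0.29). The causes were not tested. Deviations of same-numbered libraries correlated at -0.04 to 0.01 over the tested genes. With so few counts per gene, this cannot exclude that same-numbered libraries were handled together, and the labels do not say. With the replicate block 416 genes were called in KO2, 482 in KO1 and 935 between the lines. Gm15622 then stood at 3.35, 1.29 and 2.06. Bhmt and 10 of the 12 neighbours had too few counts for a test, and how far depth or the strand counted sets this was not tested.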
